A study of Mus musculus with 4 samples.

Results

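Alveolar macrophages in G2 and mitosis were picked from single-cell profiles of mouse lung macrophages by the transcripts of 10 genes that are switched on late in the cell cycle (Top2a, Mki67, Cenpf, Cenpe, Ube2c, Ccnb2, Birc5, Hmmr, Nusap1 and Prc1). A cell was taken as an alveolar macrophage (AM) when Chil3, Ear1, Ear2, Fabp1, Lpl and Plet1 together held at least 0.4% of its UMIs (unique molecular identifiers, each marking 1 counted RNA molecule) and more than the complement genes C1qa, C1qb and C1qc. AM cells with at least 5 UMIs of the 10 genes are called G2/M cells below, and they were compared with AM cells holding none. The name stands for this rule, as the phase of a cell was not measured otherwise. In each library 49.6 to 68.2% of these cells also held at least 5 UMIs of 10 S-phase genes. There were 637 G2/M cells and 17060 cells with none among 19193 AM cells, out of 22258 cells kept in all, and 1496 AM cells held 1 to 4 such UMIs and entered neither class.

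The cells came from lungs of female mice. Wildtype and MMTV-HER2 animals were sampled at 16 weeks (early) and at 32 weeks (late, the stage for which the labels describe palpable tumours), with 1 library for each of the 4 groups. The MMTV promoter is active chiefly in mammary epithelium, so the HER2 oncogene is expressed there and not by design in the macrophages. Lungs were digested with collagenase, stained for flow cytometry or sorting, and loaded on a 10x 3′ droplet assay as lung macrophages. Genotype was read from sample titles, as the strain label is the same for all 4. Neither the number of mice behind a library nor the gate is stated in the sources used here.

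Alveolar macrophages live in the air spaces, clear surfactant lipid and inhaled particles, and maintain their numbers largely by dividing in place under GM-CSF. A cell passing through S phase copies its DNA with the replication genes driven by E2F factors. It then switches on kinases, cyclins, kinetochore and spindle genes for G2 and mitosis, many of them through the MuvB complex with B-MYB and FOXM1. That complex binds the CHR element (cell cycle genes homology region) of a promoter, often near CCAAT boxes bound by NF-Y.

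The promoters of 5 genes that carry both elements are shown, because the cells were chosen by genes of this kind. They are the 5 with the highest mean level in G2/M cells among the 15 of 21 matched genes with both elements (the 10 rule genes and the 15 highest genes named below, 25 in all). Each window runs from 250 bases before the annotated start to 49 bases after it, taken from RefSeq (GRCm38.p6), 5′ to 3′ on the strand of the gene. Capitals mark the CHR letters TTTGAA or TTCGAA and the CCAAT box, on either strand, so that TTCAAA and ATTGG also appear, and in Ube2c a CCAAT overlaps an ATTGG.
Top2a (DNA topoisomerase II alpha, chr11:99024140-99024439, minus strand): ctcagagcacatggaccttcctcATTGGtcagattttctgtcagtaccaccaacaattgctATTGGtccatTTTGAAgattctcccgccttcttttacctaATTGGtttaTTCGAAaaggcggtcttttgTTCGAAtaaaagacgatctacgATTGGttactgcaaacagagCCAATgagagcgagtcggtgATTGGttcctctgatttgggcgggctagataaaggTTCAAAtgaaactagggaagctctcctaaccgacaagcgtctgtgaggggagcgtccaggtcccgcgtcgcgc
Mki67 (the Ki-67 protein of mitotic chromosomes, chr7:135716330-135716629, minus strand): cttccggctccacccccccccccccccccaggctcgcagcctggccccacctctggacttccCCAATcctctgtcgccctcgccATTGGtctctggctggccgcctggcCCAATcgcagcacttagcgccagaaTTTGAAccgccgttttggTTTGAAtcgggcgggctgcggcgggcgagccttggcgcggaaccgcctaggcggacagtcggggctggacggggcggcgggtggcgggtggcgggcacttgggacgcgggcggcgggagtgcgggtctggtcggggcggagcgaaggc
Ube2c (ubiquitin-conjugating enzyme of the anaphase-promoting complex, chr2:164769679-164769978, plus strand): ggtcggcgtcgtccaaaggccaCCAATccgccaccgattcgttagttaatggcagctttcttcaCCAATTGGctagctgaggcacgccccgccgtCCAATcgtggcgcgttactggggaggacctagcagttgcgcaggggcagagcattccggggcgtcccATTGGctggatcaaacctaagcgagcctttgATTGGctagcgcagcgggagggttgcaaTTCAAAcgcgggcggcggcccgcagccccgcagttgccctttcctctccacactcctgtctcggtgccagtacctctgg
Cenpf (kinetochore protein, chr1:189688037-189688336, minus strand): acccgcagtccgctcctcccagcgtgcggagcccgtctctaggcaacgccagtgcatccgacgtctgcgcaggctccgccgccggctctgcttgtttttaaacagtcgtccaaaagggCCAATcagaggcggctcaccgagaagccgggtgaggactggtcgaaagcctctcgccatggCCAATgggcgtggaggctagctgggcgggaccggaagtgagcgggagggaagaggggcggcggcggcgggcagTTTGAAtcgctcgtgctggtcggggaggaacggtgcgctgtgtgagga
Prc1 (crosslinker of the central spindle, chr7:80294201-80294500, plus strand): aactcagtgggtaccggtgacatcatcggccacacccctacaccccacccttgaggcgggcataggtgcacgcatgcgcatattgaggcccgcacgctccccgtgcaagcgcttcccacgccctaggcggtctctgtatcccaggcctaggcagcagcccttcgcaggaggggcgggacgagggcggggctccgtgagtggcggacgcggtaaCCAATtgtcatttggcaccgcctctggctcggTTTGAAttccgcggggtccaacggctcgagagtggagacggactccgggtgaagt

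Counted from the start site at 0, the CHR match nearest the start began at -23 in Top2a, -98 in Mki67, -29 in Ube2c, 2 in Cenpf and -5 in Prc1. Over the first window of each gene, both elements occurred in 7 of the 10 rule genes (70.0%) and in 8 of the 11 matched genes of the 15 highest (72.7%). Among 62 matched genes of the mitosis lists (kinases, cyclins, kinetochore and spindle) the share was 54.8%. It was 14.3% of 28 DNA replication genes, 22.1% of 272 genes higher in G2/M cells and 11.1% of 18 genes lower in them. All 27025 genes of the table gave 7.70% and the 2517 matched genes tested here gave 6.63%. The CHR letters alone occurred in 69.4% of the mitosis genes and 17.9% of the replication genes, against 19.4% of all genes. A match is a description of letters, and binding was not measured here.

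Libraries held 28786682 to 39228655 UMIs in all, and G2/M cells 773383 to 1469593 UMIs per library. Between any pair of libraries 1 to 13 cell barcodes were shared, where independent drawing from the barcode list gives 3.87 to 5.26. The wildtype early library stood apart by RNA of T cells. In it, 8 of 195 G2/M cells held at least 3 UMIs of 10 T cell markers. These markers summed to 326 CPM in its G2/M cells, against 0 to 3.08 CPM in those of the other libraries (CPM, counts per 1000000 UMIs of that class in that library). In cells with none they summed to 29.8 CPM in wildtype early, against 3.28 to 3.64 CPM in the others. Among cells with none, 25 of 4245 held at least 3 UMIs of these markers in wildtype early. In each other library 2 to 6 cells with none did. C1q genes held 0.000776 to 0.0262% of G2/M UMIs. At least 5 such UMIs were found in 4 and 0 cells of the early libraries (wildtype, then HER2) and 3 and 5 cells of the late ones, the order in which 4 values are given throughout. These mixed cells, 9, 0, 4 and 5 of the G2/M cells, were kept, and results that move without them are given both ways. Of the other marker lists, the interstitial macrophage one summed to 265 to 546 CPM in G2/M cells (297 to 537 CPM in cells with none), the epithelial to 107 to 195 CPM (171 to 266), the neutrophil to 55.6 to 98.1 CPM (68.4 to 104) and the endothelial to 30.6 to 102 CPM (53.2 to 67.7). Monocyte markers summed to 36.9 to 61.2 CPM (32.6 to 48.9) and B cell markers to 27.2 to 37.4 CPM (49.7 to 66.3). Dendritic, NK and fibroblast markers reached at most 7.49, 5.44 and 1.29 CPM, with 4 of 9, 3 of 6 and 6 of 8 at 0 in G2/M cells of every library. At least 3 UMIs of other cell types' markers were held by 45.6, 30.6, 33.3 and 29.4% of G2/M cells, against 22.9 to 28.9% of the shallower cells with none; 7 of the 67 markers lie above 10 CPM in AM cells with none. Doublets were left in, as no caller was run.

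G2/M cells made up 4.03% of wildtype early AM cells (195 of 4833, 95% exact binomial interval 3.50 to 4.63). The share was 2.81% in HER2 early (124 of 4413, 2.34 to 3.34), 3.32% in wildtype late (141 of 4245, 2.80 to 3.91) and 3.10% in HER2 late (177 of 5702, 2.67 to 3.59). The wildtype early interval lies above that of HER2 early and overlaps those of wildtype late and HER2 late. This separation depended on the cells kept. Without cells holding at least 3 UMIs of other cell types' markers, the shares were 3.14% (2.58 to 3.78) and 2.54% (2.04 to 3.13) in the early libraries and 3.08 and 2.91% in the late ones, with overlapping intervals. The early intervals also overlapped without mixed cells (3.90%, 3.37 to 4.49, against 2.84%, 2.37 to 3.38), with the class set by share of UMIs, with the alveolar list at 0.8%, and in cells of 5000 to 20000 UMIs. They stayed apart with 8 or more rule-gene UMIs (2.88 to 3.92 against 1.95 to 2.87). The same held at most 5% mitochondrial UMIs (4.06 to 5.98 against 2.33 to 3.85). With every cell thinned to 2000 UMIs and at least 2 UMIs of the 10 genes required, the shares were 4.74, 3.26, 3.80 and 3.54% of 4476, 3923, 4074 and 5362 cells, leaving out 357, 490, 171 and 340 shallower cells. The early intervals were apart after thinning too (4.13 to 5.40 against 2.73 to 3.87). Each group is 1 library, so intervals cover counting error only, and genotype, stage, mouse and library cannot be told apart.

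Transcripts of the 10 genes were concentrated in few cells: G2/M cells held 88.5 to 92.4% of their UMIs among AM cells. Barcodes of 10 to 100 UMIs, taken as free RNA, carried the 10 genes at 162 to 267 CPM. Free RNA made up at most 2.47 to 8.23% of AM UMIs, which brings 0.0183 to 0.0774 such UMIs to an AM cell of median depth. Among cells outside the AM class, at least 5 UMIs of the 10 genes were found in 0, 0, 2 and 3 of 48, 90, 83 and 70 cells rich in endothelial markers. Their median depths were 6926, 6721, 4008 and 6643 UMIs. Cells rich in T cell markers reached 5 UMIs in 42 of 291 cases in wildtype early (14.4%), the library whose G2/M cells carried T cell RNA, and in 2.22, 4.55 and 7.55% of 90, 88 and 53 cells in the others (medians of 3070 to 5439 UMIs). Cells rich in B cell markers did so in 1, 0, 0 and 2 of 28, 46, 46 and 29. The part of such cells in the wildtype early share was not tested. In free RNA the T cell markers summed to 664 CPM in wildtype early, against 36.5 to 91.9 CPM in the other libraries. Of cells rich in C1q genes (median 3127 to 6307 UMIs), 7.22, 1.84, 1.17 and 3.15% reached 5 UMIs.

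**Figure D1:**
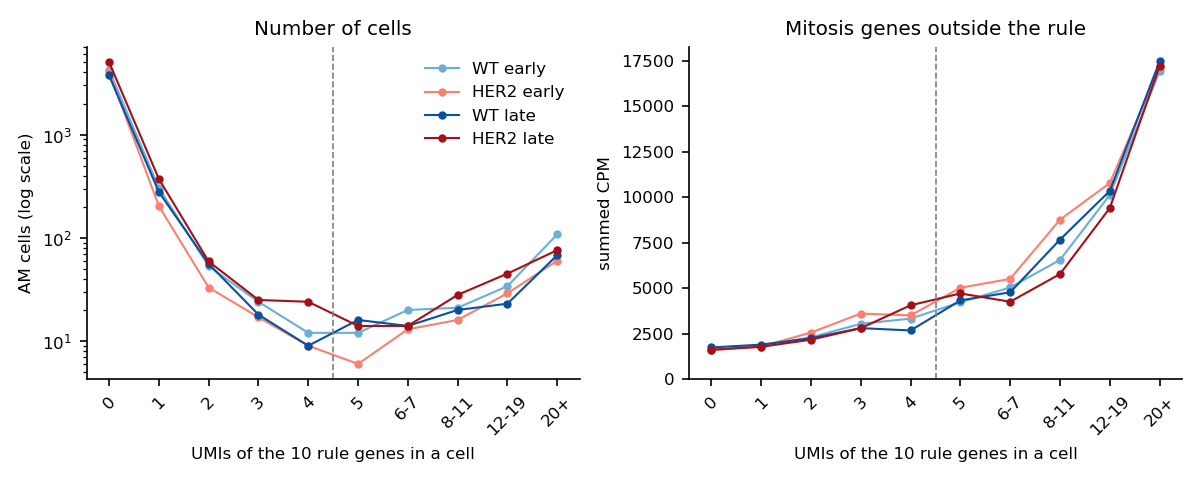
AM cells by their UMIs of the 10 rule genes, 1 line per library, with the dashed line at the limit of 5 UMIs and steps that widen above 5. Left, number of cells on a log scale, lowest at 5 UMIs over all libraries (48 cells); right, summed CPM of mitosis genes that the rule did not use, which went from 1629 CPM at 0 UMIs to 17158 CPM at 20 or more over all libraries.

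Mitosis genes outside the rule (the kinase, cyclin, kinetochore and spindle lists, pooled over libraries) followed the number of rule-gene UMIs in small steps. They summed to 1629 CPM in cells with none, 3534 CPM in the 54 cells just outside the limit (4 UMIs) and 4488 CPM in the 48 cells just inside it (5 UMIs). They reached 10012 CPM at 12 to 19 UMIs (131 cells) and 17158 CPM at 20 or more (312 cells). The levels on both sides of the limit are close, and these values describe the rule.

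G2/M cells varied in how many of the 10 genes they showed. The median cell held 22, 19, 19 and 18 UMIs of them and 6 to 7 of the 10 genes, with a range of 5 to 189 UMIs. All 10 genes were seen in 17.7 to 20.3% of cells, and 15.3 to 21.3% held only 5 to 7 UMIs. Mki67 was found in 92.9 to 96.0% of G2/M cells, Top2a in 75.9 to 83.6%, Birc5 (survivin, of the chromosomal passenger complex) in 74.9 to 80.6%, and Hmmr (a spindle-associated hyaluronan receptor) in 49.2 to 57.6%. Mki67 measured 788, 812, 844 and 718 CPM, and Top2a 831, 784, 890 and 702 CPM, both close across libraries. Ube2c measured 583, 506, 310 and 502 CPM, with wildtype late the low library. Cenpe, the kinesin that carries chromosomes to the metaphase plate, measured 229, 268, 325 and 272 CPM, with wildtype late the high one.

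G2/M cells carried more RNA per cell. Their median was 7000, 6056, 6466 and 6506 UMIs against 4169, 3641, 4634 and 4228 in cells with none, a ratio of 1.57 ± 0.13 (SD, n = 4 libraries). The genes detected stood in a ratio of 1.51 ± 0.09. AM cells chosen instead by at least 5 UMIs of 10 S-phase genes, with under 5 of the rule genes (80, 51, 88 and 91 cells, called S-phase-only), gave 1.68 ± 0.13. A limit in UMIs favours deep cells: 0 to 0.585% of AM cells of 1000 to 2000 UMIs were G2/M, against 8.18 to 18.3% of those of 8000 to 16000. With the class set by the share of UMIs in cells of at least 3000 UMIs, the ratio of medians was 1.35, and 1.21 within cells of 5000 to 20000 UMIs.

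Across all genes, 3138 outside the rule's own lists reached a mean of 50 CPM in either class. A gene was called higher or lower when its CPM (plus 10 CPM on each side) differed at least 1.5-fold the same way in all 4 libraries. By this, 339 genes were higher in G2/M cells (10.8% of those tested) and 25 lower (0.797%), and the median log2 ratio over all tested genes was 0.09. Since the cells were chosen by their own transcripts, these values describe the class and carry no test. Log2 ratios below are means ± SD over the 4 libraries, and the 10 CPM added to each side makes them smaller for genes near 0.

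The kinases that drive mitosis were higher in 6 of 6 measured cases of the list, with a median log2 ratio of 3.19. The whole list summed to at most 15.3 CPM in cells with none, so these kinases reached the 50 CPM limit only through G2/M cells. The same holds for many genes of the cyclin, kinetochore, spindle and replication lists below. Tallies of higher genes in these lists thus follow in part from the limit. Cdk1, the kinase that starts mitosis, measured 245, 247, 199 and 218 CPM in G2/M cells and 3.49 to 4.07 CPM in cells with none (4.10 ± 0.14). Plk1, which acts in centrosome maturation and exit from mitosis, was at 98.0, 85.3, 125 and 92.3 CPM against 0.31 to 0.47 CPM (3.40 ± 0.22). The spindle checkpoint kinases Bub1 (3.22 ± 0.19) and Bub1b (3.17 ± 0.26) stood alongside. Aurka, Ttk, Nek2 and Melk stayed under the 50 CPM limit, with means over libraries of 37.1 to 49.7 CPM in G2/M cells and at most 1.00 CPM in cells with none.

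All 10 measured cyclins and regulators of the anaphase-promoting complex were higher, with a median of 2.78. Ccna2 (cyclin A2) was at 124 to 166 CPM in G2/M cells of each library and at most 0.38 CPM in cells with none (3.94 ± 0.18). Ccnb1 (cyclin B1, partner of Cdk1) was at 99.3, 93.1, 112 and 115 CPM against 0.19 to 0.77 CPM (3.45 ± 0.10). Cdc20, an activator of the anaphase-promoting complex, was at 134, 102, 121 and 114 CPM (3.54 ± 0.14). Pttg1 (securin) gave 2.91 ± 0.09 and Cks2, a Cdk1 subunit, 3.01 ± 0.05. Anapc11, a core subunit of the complex, was higher by a smaller 0.88 ± 0.09, from 71.8 to 77.7 CPM in cells with none.

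Centromere and kinetochore genes (14 of 14 higher, median 3.08) and spindle and cytokinesis genes (29 of 29, median 3.0) followed. Cenpa, the histone H3 variant of centromeres, had the narrowest spread among the 15 highest genes at 3.63 ± 0.04, from 193 to 206 CPM against 6.68 to 7.72 CPM. Incenp and Cdca8, of the chromosomal passenger complex, gave 2.91 ± 0.18 and 3.61 ± 0.22. Racgap1, of the centralspindlin complex with Kif23, measured 250, 252, 292 and 232 CPM against 3.70 to 4.62 CPM (4.23 ± 0.12). Kif23 gave 4.03 ± 0.15, the spindle motor Kif11 3.87 ± 0.23, Kif15 3.81 ± 0.29 and Tpx2, an activator of Aurora A, 3.95 ± 0.12. Aspm, a spindle pole protein, was at 167, 155, 164 and 165 CPM against 0.13 to 0.38 CPM (4.07 ± 0.06). Ckap2l and Cdca3 completed the 15 highest genes from these groups, at 3.76 ± 0.11 and 3.75 ± 0.15.

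Stmn1 (stathmin, which destabilises microtubules) measured 1231, 1385, 779 and 906 CPM in G2/M cells and 17.8 to 36.8 CPM in cells with none (4.85 ± 0.15). The early libraries were high and the late ones low in both classes. Tubulin genes were already present in cells with none, Tubb5 at 312 to 371 CPM and Tuba1b at 279 to 317 CPM, and stood higher by 2.55 ± 0.09 and 2.02 ± 0.13.

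**Figure D2:**
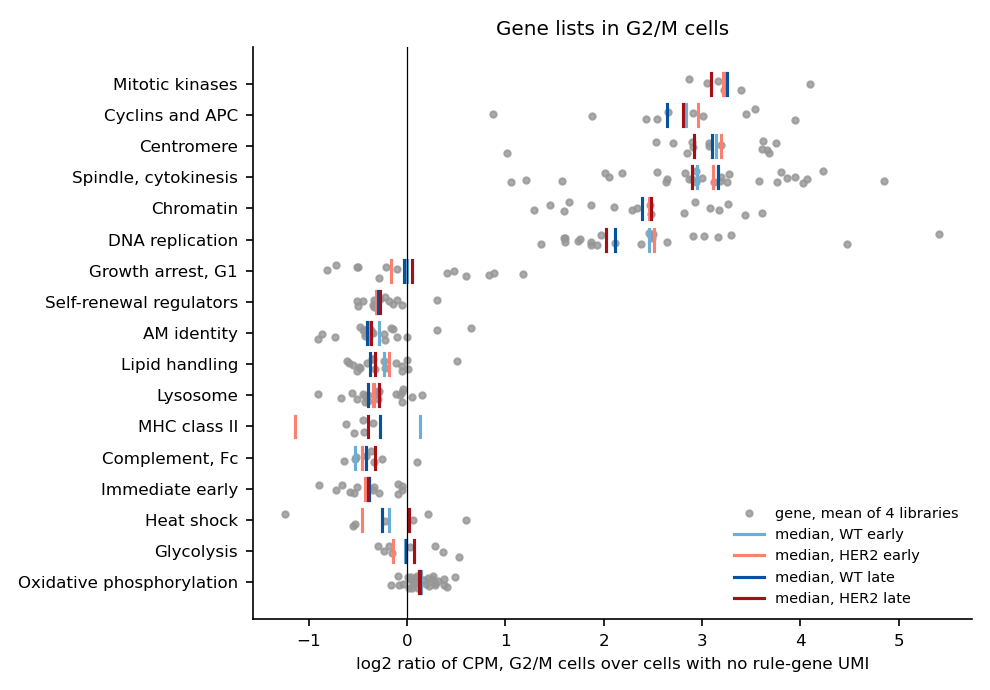
Log2 ratio of CPM in G2/M cells over cells with no rule-gene UMI for the measured genes of each list (grey points, means of 4 libraries), with the median of each library as a coloured bar. Mitosis, chromatin and replication lists lie to the right, with medians of 2.38 to 3.19, and macrophage lists lie near 0 or to its left; the MHC class II medians are the ones that scatter between libraries.

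Chromatin genes were higher in 17 of 17 cases (median 2.47). Hmgb2 was at 1190 to 1483 CPM against 96.7 to 103 CPM (3.61 ± 0.14), H2afz, a histone H2A variant, at 1.87 ± 0.05, and the condensin subunit Smc4 at 2.47 ± 0.01. The linker histone gene Hist1h1b was among the 15 highest, at 435, 415, 359 and 273 CPM against 0.81 to 1.56 CPM (5.09 ± 0.27). Of the cell cycle transcription factors, Foxm1 was at 60.6, 56.9, 59.1 and 55.4 CPM against at most 0.50 CPM (2.71 ± 0.05), and Rbl1 (p107) gave 1.42 ± 0.16. E2f1 did not pass (0.70 ± 0.14). The 3′ ends of Hmgb2, H2afz, Hmgb1, Tuba1b, Stmn1, Rrm2 and Pcna have near-identical copies, mostly pseudogenes, and the treatment of reads that match several places is not stated here. Stretches of the 3′ ends of Kif15, Kif23, Fn1 and the rule genes Prc1, Cenpf and Ube2c match 151, 4, 12, 27, 19 and 8 other genes (at least 90 bases at 95% identity), which leaves their counts uncertain too.

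DNA replication genes were higher too (23 of 23, median 2.38), although the rule held no S-phase gene. Pclaf, which binds the sliding clamp PCNA, had the largest mean ratio of the 15 highest genes, at 563, 582, 403 and 437 CPM against 1.03 to 2.17 CPM (5.41 ± 0.21). Rrm2, the small subunit of ribonucleotide reductase, gave 4.47 ± 0.37, and Pcna itself 2.12 ± 0.22, from 98.7 to 108 CPM in cells with none.

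S-phase-only cells were picked by S-phase genes that overlap the replication list, and by few rule-gene UMIs. Relative to cells with none, the replication list had a median of 2.22 in S-phase-only cells and 2.38 in G2/M cells, whereas the kinase list had 0.44 against 3.19 and the spindle list 0.42 against 3.0. Directly compared, 154 of 3141 genes were higher in G2/M than in S-phase-only cells (4.90%) and 22 lower (0.700%). The replicative helicase genes Mcm5 and Mcm6 had mean ratios of -0.97 and -1.14 in G2/M over S-phase-only cells. Aspm, Cenpa and Cdc20 were 4.06, 3.73 and 3.23 higher on the same log2 scale. Hist1h1b, a histone gene, also stood 4.54 above S-phase-only cells, although within G2/M cells it was higher in those with more S-phase UMIs, as given below. The name S-phase-only stands for the genes used to pick these cells, as their phase was not measured. Both classes were picked by their own counts, so high replication and low mitosis values in S-phase-only cells follow in part from the choice. This is a description too.

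**Figure D3:**
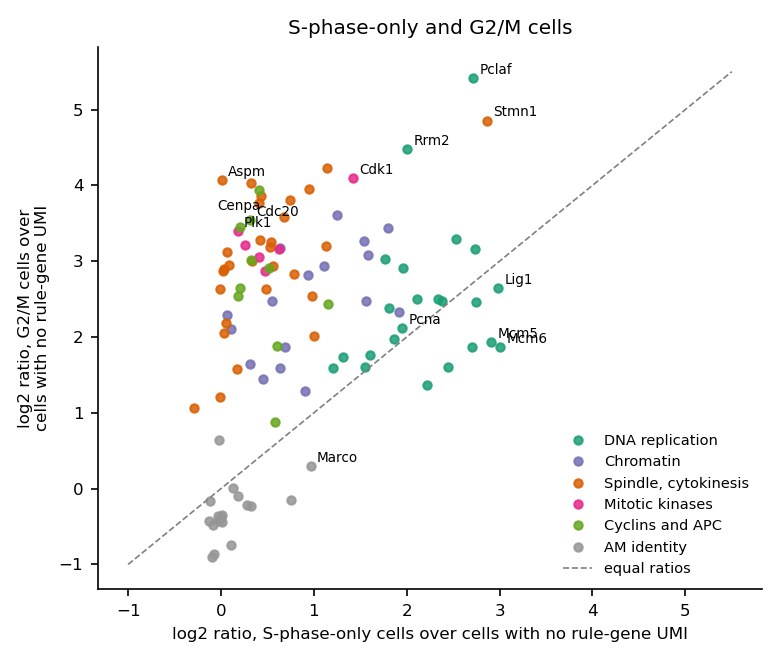
Genes of 6 lists by their log2 ratio in S-phase-only cells (x axis) and in G2/M cells (y axis), each over cells with no rule-gene UMI, as means of 4 libraries; the dashed line marks equal ratios. Mcm5 and Mcm6 lie under the line, Pcna close to it, and Aspm, Cenpa and Plk1 near 0 on the x axis and above 3 on the y axis.

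Within the G2/M cells, those with S-phase transcripts were a large part. At least 5 UMIs of the 10 S-phase genes were held by 68.2% (95% interval 61.2 to 74.7) and 61.3% (52.1 to 69.9) of the early wildtype and HER2 cells. The late libraries gave 49.6% (41.1 to 58.2) in wildtype and 52.5% (44.9 to 60.1) in HER2. None was held by 6.67, 6.45, 14.9 and 11.3%. The early shares were above the late ones, with the wildtype early interval clear of both late ones and that of HER2 early overlapping them. After thinning to 2000 UMIs, at least 2 S-phase UMIs were held by 62.1% (54.8 to 68.9), 63.7% (54.6 to 72.2), 52.9% (44.2 to 61.3) and 49.4% (41.8 to 57.1), leaving out 0, 0, 1 and 1 cells. With this thinning the wildtype early interval was no longer clear of the late ones, and each early interval overlapped both late ones. Summed over G2/M cells, the 10 S-phase genes measured 1577, 1702, 1417 and 1221 CPM.

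**Figure D4:**
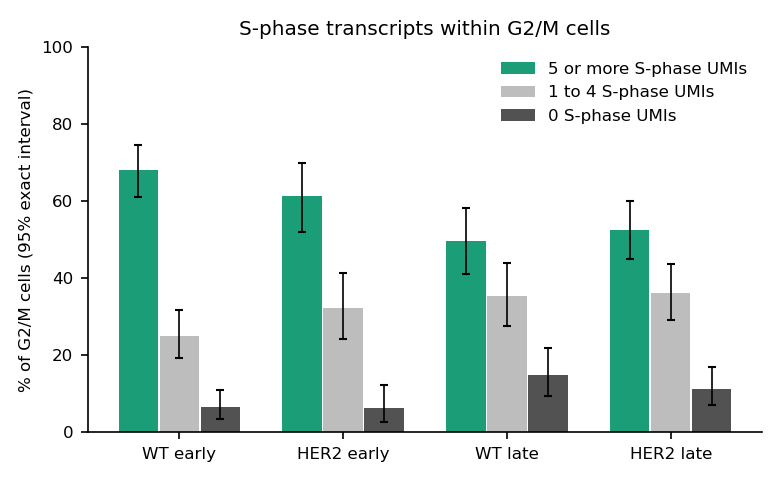
Share of G2/M cells with 0, 1 to 4 and 5 or more UMIs of 10 S-phase genes in each library, with exact 95% binomial intervals. Cells with 5 or more form 61.3 to 68.2% of the early libraries and 49.6 to 52.5% of the late ones.

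G2/M cells with under 5 S-phase UMIs were set against those with 5 or more. Of 3341 genes, 148 were lower (4.43%) and 26 higher (0.778%). The lower ones included Mcm2, Hells, Ccne2 (cyclin E2) and Dnmt1, the maintenance DNA methyltransferase, as the split itself brings about, and Hist1h1b at 63.0 against 539 CPM (-3.01 ± 0.53). The higher ones included the late mitotic genes Cdc20, at 186 against 80.9 CPM (1.15 ± 0.53), and Cdkn3, a phosphatase acting on Cdk1, at 59.5 against 20.2 CPM (1.20 ± 0.12). The rule's own genes, given as a description, lay on both sides: Ccnb2 (cyclin B2) at 1.26 ± 0.38, Cenpf at 0.88 ± 0.46, Cenpe at 0.81 ± 0.23, Ube2c at 0.63 ± 0.36 and Hmmr at 0.60 ± 0.13 were higher in cells with few S-phase UMIs. Top2a at -0.95 ± 0.35, Nusap1 at -0.80 ± 0.40 and Prc1 at -0.73 ± 0.50 were lower, and Mki67 (-0.07 ± 0.18) and Birc5 (-0.06 ± 0.23) differed by less than their spread. Outside the rule, Plk1 (-0.05 ± 0.40) and Tubb4b (0.06 ± 0.22) also differed by less than their spread. Cells with under 5 S-phase UMIs were shallower, with medians of 4590 to 6040 UMIs against 6479 to 7729.

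Some genes with no established place in the mitotic machinery were also higher in the class. Ifi27l2a, an interferon-inducible gene, measured 165, 207, 184 and 192 CPM in G2/M cells and 40.3, 36.9, 33.9 and 46.0 CPM in cells with none (2.00 ± 0.20), with no overlap. Ifi27l2a was at -0.25 in S-phase-only cells, and within the class at 377 CPM in cells with under 5 S-phase UMIs against 80.4 CPM in the rest (2.12 ± 0.58). Isg15, an interferon-induced ubiquitin-like protein gene, was under the 50 CPM limit, with means of 11.4 CPM and 7.05 CPM. Spn (CD43, a sialylated surface protein) was at 91.9, 81.5, 118 and 96.9 CPM against 18.1 to 23.2 CPM (1.85 ± 0.10). Emp1, an epithelial membrane protein family member, was at 112 against 27.4 CPM on average (1.70 ± 0.19). Spn and Emp1 were named after their values were seen, in the split by S-phase UMIs, where they stood 1.00 ± 0.09 and 1.22 ± 0.60 higher in cells with few such UMIs.

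Genes of growth arrest and of the G1 phase went both ways, 3 higher and 2 lower of 13 measured (median -0.10). Cdkn1a (p21, an inhibitor of cyclin-dependent kinases) measured 256, 244, 195 and 202 CPM in G2/M cells against 79.7 to 100.01 CPM (1.18 ± 0.16), and 0.04 in S-phase-only cells. Cdkn1b (p27) was higher by 0.89 ± 0.10 and Cdk4 by 0.83 ± 0.18. Cdkn2c (p18) and Cdkn2d (p19), below the 50 CPM limit, were at 36.6 and 47.2 CPM against 0.64 and 3.64 CPM. Ccnd2 (cyclin D2, of G1) was lower, at 152, 185, 284 and 160 CPM against 288, 312, 433 and 344 CPM (-0.82 ± 0.20), as was Mxd4, an antagonist of MYC (-0.72 ± 0.12).

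The genes lower in G2/M cells were few. Chaperones of the endoplasmic reticulum were among them: Calr (calreticulin) measured 306, 257, 367 and 355 CPM against 700, 692, 885 and 784 CPM (-1.23 ± 0.12), and Hspa5 (BiP) 352, 260, 450 and 402 CPM against 792, 789, 935 and 846 CPM (-1.20 ± 0.25). The disulphide isomerase Pdia6 gave -0.81 ± 0.09. Others of that compartment, looked up after these values were seen, did not pass: Hsp90b1 was at -0.27 ± 0.08 and Pdia4 at -0.47 ± 0.21. In S-phase-only cells Calr and Hspa5 stood at -0.19 and -0.17. Histone gene Hist1h2bc was at 33.3, 16.8, 27.4 and 40.8 CPM against 81.5 to 124 CPM (-1.61 ± 0.41), opposite to Hist1h1b, and it was at -1.35 in S-phase-only cells. Aldoc, a glycolytic aldolase, gave -1.37 ± 0.28, the protease gene Mmp19 -1.16 ± 0.21, and the heat shock gene Hspa1b -1.24 ± 0.25.

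Tyrobp (DAP12, a signalling adaptor of myeloid receptors) measured 1059, 936, 807 and 1039 CPM against 1752, 1796, 1445 and 1725 CPM (-0.80 ± 0.10). Cd63, a tetraspanin of late endosomes, gave -0.83 ± 0.08, Adgre1 (F4/80) -0.81 ± 0.13, Samhd1, which degrades dNTPs, -0.85 ± 0.12, Vat1 -0.91 ± 0.16 and the AP-1 gene Junb -0.90 ± 0.16. Of the AM ribonucleases, Ear10 was at -0.90 ± 0.13 and Ear6 at -0.87 ± 0.19. The 3′ end of Ear10 is shared with Ear1 and Ear2.

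AM identity was present in the class, whose cells were picked by AM genes. Siglecf, the surface lectin used to sort AMs, measured 101, 111, 111 and 74.6 CPM against 106 to 118 CPM, and Krt79 515, 520, 513 and 596 CPM against 522 to 629 CPM. Of 19 measured identity genes, 3 were lower (Krt19, Ear6 and Ear10) and none higher (median -0.37). The genes of the AM rule held 1.20 to 1.58% of UMIs against 1.65 to 1.95%. Lipid handling genes (18 measured, none called, median -0.34) included Plin2, which coats lipid droplets, at -0.55 ± 0.07 and the cholesterol exporter Abcg1 at -0.51 ± 0.13. Of 20 lysosome and efferocytosis genes 1 was lower, the protease Ctsd (-0.67 ± 0.05), and the median was -0.30. Regulators of AM self-renewal (14 measured, none called, median -0.29) included the GM-CSF receptor chain Csf2rb at -0.50 ± 0.21, the ETS factor Spi1 (PU.1) at -0.35 ± 0.11 and Pparg, a nuclear receptor required for AM development, at -0.18 ± 0.11. Myc was under the limit in both classes.

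Complement and Fc receptor genes (8 measured, none called, median -0.39) and immediate early genes (14 measured, 2 lower, Junb and Jund, median -0.37) lay on the same side. Of the chemokine list Ccl6 was at -0.64 ± 0.07 and Ccl9 at 0.55 ± 0.23, neither called. Heat shock genes differed among themselves, with Hsp90aa1 at 0.60 ± 0.13 and Hsp90ab1 at -0.53 ± 0.09. Glycolysis (8 measured, median -0.06), oxidative phosphorylation (29, median 0.11) and ribosomal protein genes (75, median 0.10) held no called gene. These medians are read beside the 0.09 over all tested genes. Gm42418, a ribosomal RNA-associated locus, held 13.3 to 16.2% of UMIs in G2/M cells and 16.8 to 20% in cells with none.

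Differences between groups within G2/M cells rest on 1 library each and on 124 to 195 cells. Each library enters 2 comparisons, and with 1 library per group no group difference was tested. Genes of at least 100 CPM in either library were compared. In HER2 over wildtype early, 6 of 1523 genes were at least 1.5-fold higher (0.394%) and 19 lower (1.25%), and in late over early HER2 12 of 1514 were higher (0.793%) and 21 lower (1.39%). In HER2 over wildtype late 73 of 1666 were higher (4.38%) and 106 lower (6.36%), and in late over early wildtype 119 of 1682 were higher (7.07%) and 124 lower (7.37%). In the far more numerous cells with none, the same genes gave 4 and 9, 13 and 9, 34 and 33, and 81 and 68, in the order of these sentences. Counts simulated with no difference gave 0.147 to 0.297% of genes, for both directions together. The simulation held counting error only, with no variation between cells or libraries, so its share is no chance level for the counts above. The comparisons that involve wildtype late held the most genes in both classes. Wildtype late also had the lowest share of ribosomal protein UMIs, 8.87% in G2/M cells against 10.8 to 11.6% in the other libraries. In cells with none it was 8.46% against 10.2 to 10.6%. The part of this in the gene counts was not tested. The split depended on the scaling: without mitochondrial, ribosomal and Gm42418 UMIs it was 20 higher and 26 lower, 40 and 44, 152 and 116, and 178 and 174. With the median taken off it was 8 and 10, 11 and 23, 135 and 35, and 85 and 159.

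The 10 rule genes summed to 4405, 4158, 4167 and 3919 CPM, a value the rule acts on. Over the 4 mitosis lists outside the rule, the summed log2 ratios ran from -0.26 (kinases, late over early HER2) to 0.10. Of the rule genes, Ube2c, whose level the rule also acts on, was past the fold in HER2 over wildtype late (0.69) and in late over early wildtype (-0.91), which is given as a description. Kif15 was higher in HER2 early, at 190 against 118 CPM (0.69, 0.36 to 1.02), but its 3′ end matches many other transcripts, as described above, so its count is uncertain.

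DNA replication genes were lower in late than in early HER2 G2/M cells, with sums of 3045 and 4112 CPM (-0.43, -0.50 to -0.37) and 5 of 14 measured genes past the fold. In cells with none the same sum gave -0.05 (-0.10 to -0.01). Pcna was at 595 CPM early and 373 CPM late (-0.67, -0.86 to -0.49), Rrm2 at 295 and 179 CPM (-0.72, -0.99 to -0.45) and Stmn1 at 1385 and 906 CPM (-0.61, -0.73 to -0.49). In wildtype the replication sum gave -0.06 (-0.12 to 0.00) for late over early, against 0.22 (0.18 to 0.27) in cells with none. The summed S-phase genes gave -0.15 (-0.25 to -0.06) in wildtype G2/M cells and 0.15 (0.05 to 0.26) in wildtype cells with none. In HER2 they gave -0.48 (-0.59 to -0.37) and -0.05 (-0.15 to 0.05). Relative to cells with none, both sums were thus lower late than early in both genotypes. Histone H2A genes moved with stage too, Hist1h2ae from 349 to 108 CPM in HER2 and from 235 to 88.7 CPM in wildtype, and Hist1h2ak from 136 to 60.8 CPM in HER2. Hist1h2ap went the other way in wildtype, from 70.1 to 204.7 CPM, and was at 82.8 and 75.4 CPM in HER2. The 3′ ends of these H2A genes are near-identical, so reads cannot be assigned to one of them with certainty.

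MHC class II genes, which present antigen to CD4 T cells, set HER2 early G2/M cells apart. Cd74, the invariant chain, measured 588, 207, 759 and 747 CPM in G2/M cells and 510, 468, 918 and 834 CPM in cells with none, so that HER2 early was the lowest library in both classes, but by more in G2/M cells. In HER2 over wildtype early, Cd74 gave -1.51 (-1.76 to -1.26) in G2/M cells and -0.12 (-0.17 to -0.08) in cells with none. H2-Aa gave -1.81 (-2.31 to -1.34) and -0.01 (-0.08 to 0.07), and H2-Ab1 -1.50 (-2.06 to -0.98) and 0.02 (-0.07 to 0.11). Few cells carried these UMIs: the 3 richest G2/M cells held 34.1, 25.6, 43.5 and 49.5% of Cd74. HER2 early was also the library with no mixed G2/M cell. Without mixed cells Cd74 was at 462, 207, 464 and 404 CPM and the early difference was -1.16 (-1.42 to -0.91). The late over early HER2 difference of Cd74 went from 1.85 to 0.97, and that of H2-Ab1 from 1.59 to 0.30 (-0.30 to 0.92). Without mixed cells, cells with none were at 490, 342, 707 and 517 CPM of Cd74, a wider early gap than with mixed cells kept. The contrast between the classes was thus smaller without mixed cells. The part of other cells' RNA beyond these marked cells was not tested.

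**Figure D5:**
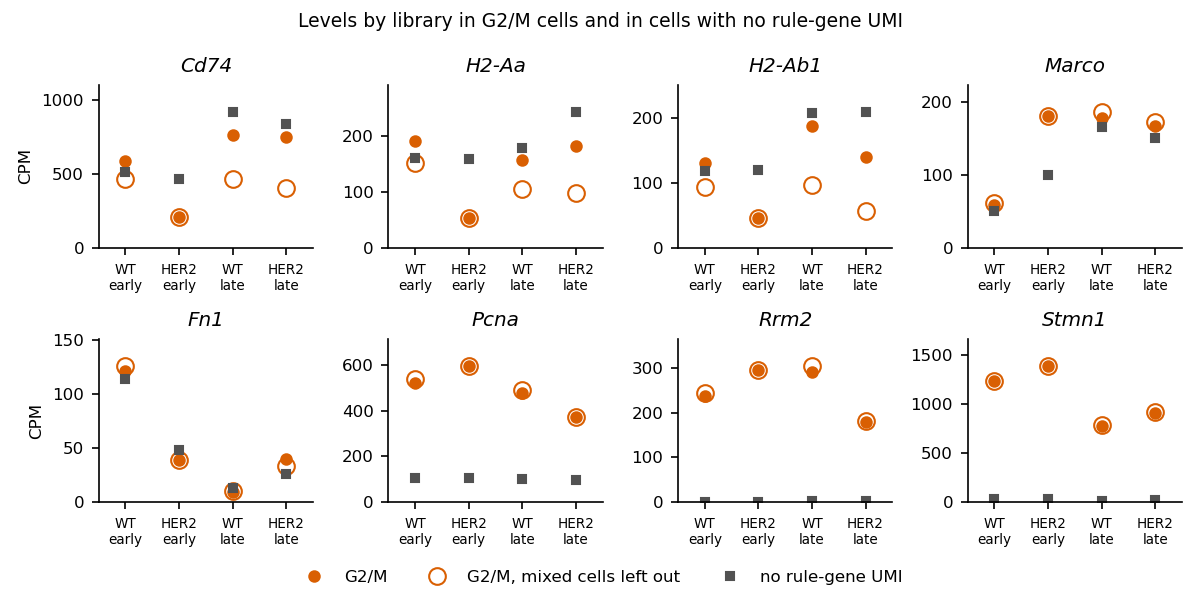
CPM of 8 genes in each library, in G2/M cells (filled circles), in G2/M cells without those carrying RNA of another cell type (open circles) and in cells with no rule-gene UMI (squares), with 1 library per group and no error bars. Cd74, H2-Aa and H2-Ab1 are lowest in HER2 early G2/M cells, and the open circles of the other 3 libraries lie well under the filled ones.

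By the naming rule 48 values were listed over the 4 comparisons, 6 in each direction, and 44 of them had the same sign in cells with none. Both classes come from the same libraries, and the share over all genes was not counted. Some of these values had intervals spanning 0 in cells with none, such as H2-Aa in HER2 over wildtype early (-0.01, -0.08 to 0.07). Marco, a scavenger receptor, was at 58.5, 181, 178 and 168 CPM in G2/M cells and 51.0, 99.8, 166 and 151 CPM in cells with none, with wildtype early the low library in both. Its HER2 over wildtype early difference was 1.63 (1.23 to 2.03) against 0.97 (0.85 to 1.08). Fn1 (fibronectin) was at 122, 38.8, 9.50 and 40.0 CPM against 114, 48.9, 13.6 and 25.8 CPM. Its 9 UMIs in wildtype late came from 3 cells, and its 3′ end also matches other transcripts. The feedback phosphatase gene Dusp1 was lower in HER2 at both stages, by log2 values of -0.89 early and -0.96 late, and by -0.79 and -0.74 in cells with none. Nfkbia, the inhibitor of NF-kappaB, was at -0.93 (-1.32 to -0.56) in HER2 over wildtype early and -0.51 in cells with none. Hspa5 was higher in late than early HER2 by 0.63 (0.39 to 0.87), against 0.10 (0.07 to 0.13) in cells with none.

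In HER2 over wildtype late, Ltc4s (leukotriene C4 synthase) was at 348 against 173 CPM (1.01, 0.75 to 1.27), Ear6 at 1.23 (0.83 to 1.65) and the elastase gene Mmp12 at -2.01 (-2.46 to -1.57). The 3 richest cells held 53.4% of the Mmp12 UMIs in HER2 late and 48.8% in wildtype late. S100a6, a calcium-binding protein, was at 106 against 23.2 CPM (2.19), with 67.4% of its HER2 late UMIs in 3 cells, and at -0.67 in cells with none. Ogt, which adds O-GlcNAc to proteins, was at -1.10 (-1.51 to -0.69). In late over early wildtype, Gpnmb, a glycoprotein of lipid-laden macrophages, was at 1.28 (0.99 to 1.56) and B3gnt7 at 1.25 (0.84 to 1.66). Gapdh, Ubb, Bcl2a1a, Bcl2a1b and Ftl1-ps1 also ranked among the genes apart here, and their 3′ ends have near-identical copies, which leaves their counts uncertain. In HER2 over wildtype early, Abca1, C3 and Abcg1 were higher by 0.81 (0.37 to 1.25), 0.72 (0.28 to 1.15) and 0.34 (0.22 to 0.45), the last short of the fold. Ccl9 was at 0.64 (0.37 to 0.93) in late over early HER2.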

How the data were processed

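Single-cell RNA counts of lung macrophages from 4 mouse libraries were used, as UMI counts per gene and barcode that the authors deposited. The submitters' processing notes give Cell Ranger 5.0.1 and the build mm10, and Cell Ranger 4 is named per the file headers. Multi-mapping and strand settings are not stated, and tables of averages were not used.

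Cells with at least 1000 UMIs, 500 genes and at most 10% mitochondrial UMIs were kept. UMIs were summed per class and library, and the log2 ratio of CPM + 10 was taken within each library. A called gene differed at least 1.5-fold in all 4 libraries at a mean of at least 50 CPM in either class. Groups were compared by CPM ratios at 100 CPM or more, with exact conditional binomial 95% intervals. Shares have Clopper-Pearson intervals. Intervals cover counting error only.

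The members and gene lists were chosen with earlier results of these data known. Named were the 15 highest and 15 lowest called genes by the weakest library, the rule genes, the most abundant members of each list, and the 6 highest and 6 lowest genes of each group comparison by the interval bound nearest 0. Further list members, and the genes of the S-phase comparisons, were named after their values were seen. The S-phase comparisons, the limit on free RNA (from barcodes of 10 to 100 UMIs and the smallest marker ratio over markers with at least 50 such UMIs) and the definition of mixed cells were also set after seeing the data. A mixed cell held at least 3 UMIs of other cell types' markers that are at most 10 CPM in AM cells, or at least 5 C1q UMIs.

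On simulated counts the class comparison called 94.0% of 50 genes raised 2-fold, 84.0% of 50 at 0.5 of their level, 100% at 4-fold and 96.0% at 0.25, and 0 of 2418 unchanged ones. These counts held counting error only, without variation between cells or libraries. Alternatives covered the class limits, depth, mitochondrial share, other-cell RNA, free RNA, scaling, low-value limits and each library left out. Near-identical 3′ ends were found with BLAST 2.17.0. Python 3.11.15 with numpy 2.4.6, scipy 1.17.1, pandas 2.3.3 and matplotlib 3.10.9 was used.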

Additional observations from a re-analysis of the deposited data

How the results depend on the processing

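Of 56 called genes named for the class, none changed side in 1008 values under those of the 20 alternatives that give a class ratio. They were named from calls in these same data, so a change of side was unlikely from the outset. The growth arrest median of -0.10 was 0.12 with 8 or more rule-gene UMIs, 0.10 with the class set by share of UMIs, 0.25 at most 5% mitochondrial UMIs, 0.083 in cells of 5000 to 20000 UMIs, 0.43 scaled without mitochondrial, ribosomal and Gm42418 UMIs, 0.42 from 10 CPM, 0.13 with every cell weighing the same and between -0.13 and 0.13 with each library left out, the latter without HER2 late. The interferon list, with 2 of 16 genes measured, had a median of 1.03 in the main setting and of -0.025 in cells of 5000 to 20000 UMIs. Shares of G2/M cells in wildtype early were 3.37% with 8 or more rule-gene UMIs (2.61% in both late libraries), 3.49% with the alveolar list at 0.8%, 4.96% at most 5% mitochondrial UMIs, 3.14% without cells holding 3 other-marker UMIs and 4.74% after thinning. By share of UMIs HER2 early was 3.49%, the UMI ratio 1.35 and the genes lower 48. Cells of 5000 to 20000 UMIs gave 7.90, 6.64, 5.18 and 5.86%, and a UMI ratio of 1.21. Genes lower in the class were 48 under the scaling above and 55 with the median taken off, and genes higher 604 from 10 CPM. Leaving out each library gave 342 to 374 higher, 29 to 37 lower and UMI ratios of 1.53 to 1.63.

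Counts between groups moved as follows, higher then lower. HER2 over wildtype early gave 27 and 37 at most 5% mitochondrial UMIs, 14 and 43 without cells holding 3 other-marker UMIs, 0 and 1 from 300 CPM, 20 higher when rescaled, 10 higher in cells of 5000 to 20000 UMIs, 9 lower with the alveolar list at 0.8% and 10 lower with the median taken off. HER2 over wildtype late gave 110 and 257 at most 5% mitochondrial UMIs, 30 and 16 from 300 CPM, 152 higher when rescaled, and 135 and 35 with the median taken off. Late over early wildtype gave 244 higher at most 5% mitochondrial UMIs and 24 and 58 from 300 CPM. Late over early HER2 gave 24 and 45 at most 5% mitochondrial UMIs, 30 and 40 without cells holding 3 other-marker UMIs, 3 and 8 from 300 CPM, 40 and 44 when rescaled and 6 higher without mixed cells, a setting chosen after seeing the data. The causes were not tested. No paired analysis was possible because the labels give no replicate numbers that the groups share. An additive fit of genotype and stage over the 4 libraries was not run.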
